A study of Mus musculus with 74 samples.

Results

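The BCL6 peaks lying between genes in mouse quadriceps were described through the acetylation of histone H3 at lysine 27 (H3K27ac) in a 1000 bp window on each peak. Members were the windows that the deposited annotation calls intergenic and whose peak lies more than 1000 bp from the nearest annotated transcription start, which gave 3255 of 10925 windows. All 3255 windows annotated as intergenic passed the distance limit, so it removed none. The 3 nearest members lay 1007 to 1010 bp from a start, at Gadl1, Inf2 and Atrnl1. The window signal was measured in 3 knockout mice (AEC-Esr Cre (+):Bcl6 fl/fl) and 3 Cre-negative mice (Bcl6 fl/fl), all C57BL/6 and all given tamoxifen. The Cre-negative animals are labelled Ctr_1898, Ctr_1899 and Ctr_1906 and the knockout animals mKO_1896, mKO_1900 and mKO_1907, and values are given in these orders. The time between tamoxifen and sampling and the age of the animals are not given in the sources used here, nor is the promoter that drives the Cre. The groups differ in the Cre as well as in Bcl6, and the part of the Cre itself cannot be told apart from that of the deletion here. BCL6 peaks came from 1 untreated wild-type C57BL/6 library, precipitated with an in-house guinea-pig monoclonal antibody, so peak scores have no replicate. An acute and a chronic H3K27ac series, which the file headers name as 1 and 12 weeks, held 3 knockout and 3 Cre-negative mice each, of the same genotypes and strain, given tamoxifen. RNA of the nearest genes was measured in 5 knockout and 4 Cre-negative mice given tamoxifen, among them the 6 mice of the window series. Nascent RNA was measured in wild-type C57BL/6 mice, of which 5 received FX1, a compound that inhibits BCL6, and 5 received DMSO.

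BCL6 is a zinc finger repressor that binds a spaced palindrome also used by STAT factors and recruits corepressor complexes that hold histone deacetylases. H3K27ac marks active promoters and active enhancers, and enhancers often lie between genes, at a distance from the genes they act on. In skeletal muscle, distal acetylated elements carry much of the fibre-type and activity-dependent regulation of genes for contraction, metabolism and growth. The nearest gene is only the closest start in the authors' annotation and need not be the gene that an element acts on.

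Sequence was at hand for a small share of these peaks, those that reach the start of a transcript in the RefSeq annotation of build GRCm38.p6, the assembly behind mm10. Of the 3255 peaks, 46 overlapped 49 of 32851 RefSeq promoter entries, each holding 250 bases before to 50 after a start, and 46 of these entries belong to long noncoding RNAs. The overlapped stretches of 8 peaks are printed. They hold the palindrome at raised and uncalled windows, and lack it at a raised and a lowered window. They were picked after the values were seen, as the stretches of at least 60 bases that were called or that held the palindrome in a peak scoring over 35. Capitals mark each TTCNNNGAA, which reads the same on both strands, and stretches without capitals hold none.
Gm52253: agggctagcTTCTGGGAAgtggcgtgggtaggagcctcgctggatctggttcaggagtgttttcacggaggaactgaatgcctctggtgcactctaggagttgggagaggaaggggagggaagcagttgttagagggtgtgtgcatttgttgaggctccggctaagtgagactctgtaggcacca
Gm3331: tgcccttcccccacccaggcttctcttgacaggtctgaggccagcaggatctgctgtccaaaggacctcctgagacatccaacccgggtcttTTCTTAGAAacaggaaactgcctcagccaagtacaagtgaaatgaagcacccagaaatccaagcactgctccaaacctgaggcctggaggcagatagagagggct
Gm36301: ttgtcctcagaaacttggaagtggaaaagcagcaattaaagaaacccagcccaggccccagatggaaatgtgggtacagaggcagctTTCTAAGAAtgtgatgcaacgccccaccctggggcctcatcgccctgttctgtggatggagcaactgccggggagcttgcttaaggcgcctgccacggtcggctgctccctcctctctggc
Gm35551: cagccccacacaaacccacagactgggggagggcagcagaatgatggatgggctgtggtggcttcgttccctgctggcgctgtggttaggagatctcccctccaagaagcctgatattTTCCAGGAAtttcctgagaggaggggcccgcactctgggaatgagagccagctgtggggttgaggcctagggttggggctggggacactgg
Gm52627: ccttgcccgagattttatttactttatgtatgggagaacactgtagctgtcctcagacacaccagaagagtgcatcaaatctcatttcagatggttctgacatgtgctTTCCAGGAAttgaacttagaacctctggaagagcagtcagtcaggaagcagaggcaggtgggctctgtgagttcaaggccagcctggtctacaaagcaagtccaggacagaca
Gm34350: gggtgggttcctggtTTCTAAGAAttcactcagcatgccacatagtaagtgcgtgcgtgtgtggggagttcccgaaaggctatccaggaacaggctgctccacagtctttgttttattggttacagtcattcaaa
Gm26698: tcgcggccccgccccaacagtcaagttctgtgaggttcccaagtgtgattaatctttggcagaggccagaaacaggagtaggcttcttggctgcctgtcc
Gm13010: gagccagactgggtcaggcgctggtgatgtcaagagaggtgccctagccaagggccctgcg
The Gm52253 stretch (chr16:76432561-76432745, plus strand) lay in a peak scoring 128.6, and its window held 185.9, 196.4 and 158.3 scaled tags in Cre-negative and 249.0, 299.3 and 294.1 in knockout muscle. All knockout values stood above all Cre-negative values, and the window was raised (log2 difference 0.64, SE 0.111, adjusted p = 0.00155). The Gm34350 stretch (chr7:67805560-67805694, plus strand) lay in a weak peak, scoring 13.5. Its window rose from 8, 5.88 and 3.82 to 27.15, 16.72 and 15.5, without overlap (log2 difference 1.6, SE 0.323, adjusted p = 0.00439). Its palindrome lay 4 bp from the centre of the peak, that of Gm52253 60 bp from it.

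The palindromes of the uncalled windows lay 14 bp from the centre for Gm3331 (chr9:32787767-32787963, plus strand), 18 bp for Gm36301 (chr6:115519452-115519659, minus strand), 12 bp for Gm35551 (chr17:84044537-84044745, minus strand) and 2 bp for Gm52627 (chr3:95671967-95672187, plus strand). These windows differed by 0.43, -0.59, 0.17 and -0.20 on the log2 scale, and none passed (adjusted p = 0.0628, 0.544, 0.764 and 0.501). The raised window of Gm26698 (chr12:86892518-86892617, minus strand; log2 difference 0.28, adjusted p = 0.0416) and the lowered window of Gm13010 (chr4:137456793-137456853, minus strand; -0.96, adjusted p = 0.0153) had no TTCNNNGAA in the overlapped stretch. Over whole promoter entries, 10 of the 49 overlapped ones (20.4%) held TTCNNNGAA on either strand, against 8.3% of all 32851. The E-box CAGCTG, which myogenic factors use, was in 20 of the 49 (40.8%) against 16.3% of all, and the TEAD site CATTCC in 22.4% against 14.7%. The GC box GGGCGG was rarer, at 24.5% against 35.7%, and the ETS site CCGGAAG stood at 2.04% against 8.86%. The 49 entries, 46 of them of long noncoding RNAs, were not matched to the whole set by transcript type or base content. These shares describe letters in a window and are no evidence of binding.

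Libraries of the window series held 15007526 to 22722409 tags, those of the acute series 11772723 to 20773905, and those of the chronic series 7794885 to 23016334. RNA libraries held 6703586 to 7447610 tags and nascent RNA libraries 13947139 to 32670917. Bcl6 RNA over the whole gene, which does not separate the floxed exons, stood at 10.21, 10.41, 10.36 and 10.38 in Cre-negative muscle (log2 level) and at 10.09, 10.22, 9.99, 10.25 and 9.98 in knockout muscle, a log2 difference of -0.23 (SE 0.0576, adjusted p = 0.0135). The groups overlapped in Bcl6. All 13 muscle fibre markers were expressed in this RNA, at a median log2 level of 12.7, with 5 lower and 1 higher in knockouts, and none of 7 lymphocyte markers passed the expression limit. Of the markers of other cell types, limma called 1 fibroblast marker lower and 1 Schwann cell marker higher in knockouts. Summed fibre markers ran from 16.69 to 16.76 in Cre-negative and from 16.58 to 16.67 in knockout muscle (log2), and their part in the results below was not tested. Nothing in the labels says how the animals were bred or sampled together, so p-values measure the spread between these samples.

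The intergenic peaks were spread over 21 chromosomes and 2283 nearest genes, of which 1691 had 1 such window and 592 had more, up to 9. They lay at a median of 30947 bp from the nearest start and at most 1467194 bp, beyond Slc10a2, a bile acid transporter gene. Upstream positions predominated, with 2150 windows (66.1%) before and 1105 after the start. BCL6 peak scores, on a scale the files do not name, ran from 11 to 481.4 with a median of 24.5. Intergenic windows were poorer in H3K27ac than other windows: their median mean signal was 21.7 tags per 10000000, against 27.5 in 5745 intron windows and 121 in 1268 promoter windows. In 287 of them at least 1 library had no tag. Most intergenic windows therefore lay where the mark was weak, and the precision of their differences is limited by few tags.

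In knockout muscle H3K27ac was higher at a minority of these elements and lower at very few. Of the 3255 intergenic windows, 460 (14.1%) were raised and 38 (1.17%) lowered in knockout muscle (limma, adjusted p under 0.05 over all 10925 windows). Over all windows, 13.1% were raised and 1.03% lowered, so the intergenic share is near that of BCL6 peaks as a whole. Intron windows were raised in 13.7% and promoter windows in 7.26%. The median log2 difference was 0.13 over intergenic windows, 0.14 over intron and 0.09 over promoter windows. Median signals over the intergenic windows were 19.99, 19.46 and 18.60 in the Cre-negative and 22.42, 22.88 and 22.50 in the knockout libraries, so the libraries of the groups did not overlap. Groups did not overlap in 779 windows with the knockouts above and 194 with them below, where 24.9% and 5.71% of all windows did so. With 3 animals a group an exact permutation test of 1 window cannot go below p = 0.1, so the calls rest on the variance shared across windows.

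The split between raised and lowered windows depends on how libraries are scaled. Each library's tags were scaled to its total, and all windows together then had a median log2 difference of 0.13. With each library centred on its own median over all windows that median was -0.10. Then 267 intergenic windows were raised and 171 lowered, or 8.2% and 5.25%, against 7.41% and 5.01% of all windows. Quantile normalization gave 275 and 139, or 8.45% and 4.27%, against 7.74% and 4.04% of all windows. With TMM on recovered tags, edgeR gave 330 and 117 of 2524, or 13.1% and 4.64%. Of all windows it tested, 11.1% were raised and 4.22% lowered. Raised windows outnumbered lowered ones under every scaling run. Without mKO_1900, 267 were raised and 23 lowered, where 830 and 64 of all 10925 windows were. Without mKO_1907 it was 293 and 25, where 891 and 60 of all windows were.

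Windows on stronger BCL6 peaks were raised more often. The 3255 windows were ordered by peak score and divided into 5 groups of 651. Raised windows numbered 36, 59, 66, 97 and 202 from the weakest to the strongest group, or 5.53%, 9.06%, 10.1%, 14.9% and 31.0%. Lowered windows showed no such order, at 8, 6, 9, 7 and 8. The median log2 difference went from 0.02 in the weakest group (scores 11 to 17.2) to 0.33 in the strongest (45.3 to 481.4). With libraries centred it went from -0.20 to 0.10, so that the order was kept and the level was not. Within the strongest group the median signals were 31.32, 29.87 and 27.19 in Cre-negative and 40.13, 46.21 and 45.01 in knockout libraries, with no overlap.

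**Figure D1:**
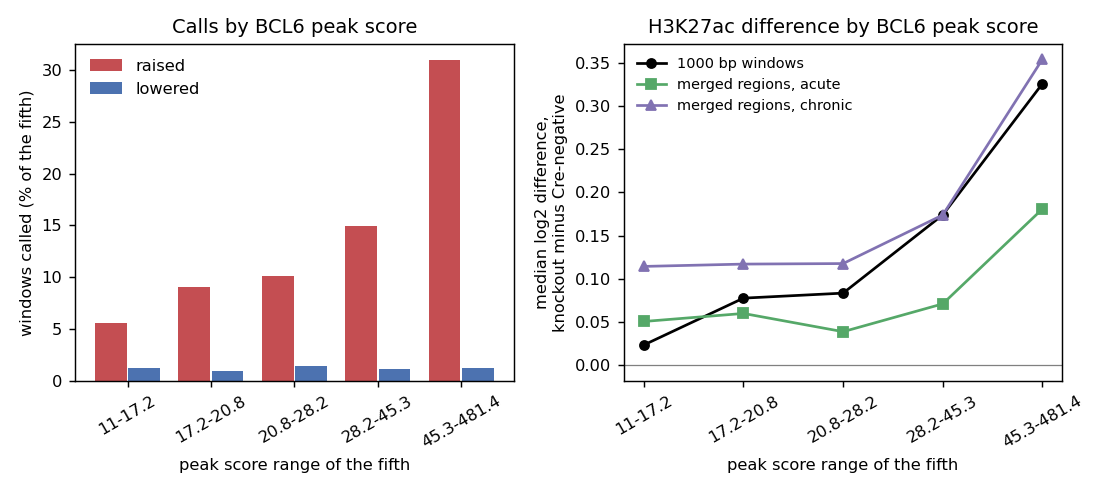
Left, percent of intergenic windows raised and lowered in knockout muscle in 5 groups of 651 windows ordered by BCL6 peak score (score range on the horizontal axis); raised windows go from 5.53% to 31.0% and lowered ones stay near 1%. Right, median log2 H3K27ac difference, knockout minus Cre-negative, in the same groups for the 1000 bp windows and for the merged regions of the acute and chronic series, which are highest in the strongest group in all 3.

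Peak score and H3K27ac level go together, and a higher level makes a difference easier to call. The median signal was 12.8 in the weakest and 37.4 in the strongest score group. Windows were therefore also divided into 5 groups by mean signal, and within each group by score. Of 325 lower-scoring and 325 higher-scoring windows, 19 and 55 were raised in the second-lowest signal group, 27 and 64 in the next, 37 and 102 in the next, and 55 and 98 in the highest. In the lowest signal group, under 3.84 tags, 1 and 2 were raised. Raised windows had a median score of 38, against 23.3 in lowered windows and 23.3 in windows that were not called. Their focus ratio, the authors' fraction of a peak's tags near its centre, was alike at medians of 0.809, 0.825 and 0.812.

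Median H3K27ac was lower in classes farther from the nearest start, while the share of raised windows had no order up to 500 kb. The median mean signal was 31.2 in the 403 windows within 5 kb of a start and 15 in the 587 windows 100 to 500 kb away. Raised shares were 14.1%, 15.4%, 12.6%, 15.9% and 14.5% in the 5 distance classes up to 500 kb, with no order. Beyond 500 kb, 9 of 38 windows were raised. Raised, lowered and uncalled windows lay at medians of 32791, 32492 and 30659 bp.

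**Figure D2:**
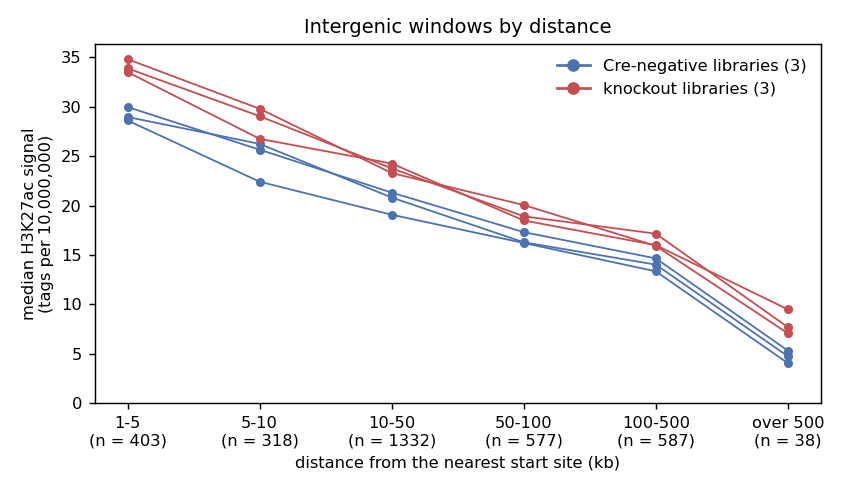
Median H3K27ac signal (tags per 10000000) of intergenic windows in 6 classes of distance from the nearest start, 1 line for each of 3 Cre-negative and 3 knockout libraries, with the number of windows under each class. Signal falls with distance in all 6 libraries, and the knockout medians lie above the Cre-negative ones in every class.

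Of 303 neighbouring pairs of intergenic windows starting within 10000 bp of each other without overlap, 26 had both raised and 53 had 1 raised, so that both were raised in 32.9% of the pairs with a raised window. Of the 606 windows counted in these pairs 17.3% were raised, and no test of clustering was made. No pair held 1 raised and 1 lowered window. The raised share went from 8.98% on chromosome 6 to 21.2% on chromosome 3 and 21.7% of 60 windows on the X chromosome. The only window on the Y chromosome was not called.

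The 6 raised windows with the largest log2 differences had Cre-negative means under 10. They were ranked among windows with separate groups and a mean signal of at least 10, a limit they passed through the knockout libraries. Such a ranking favours low control levels, so these levels are description only. At the window upstream of Ypel5, a yippee-like protein gene (chr17:72826636-72827636, peak 9492 bp before the start, score 46.6), the signal was 6.66, 3.17 and 2.38 in Cre-negative and 77.31, 81.42 and 73.52 in knockout muscle. Knockouts were all far above controls, and the window rose (log2 difference 4.04, SE 0.291, adjusted p = 1.75e-06). Beyond Pdgfc, which encodes platelet-derived growth factor C, overlapping windows 350569 and 351421 bp after the start (chr3:81386485-81387485 and chr3:81387337-81388337) shared tags. At the farther window the signal was 9.33, 4.98 and 8.11 in Cre-negative and 135.14, 106.50 and 90.52 in knockout muscle. The groups were far apart at both windows, and these rose by 3.74 (SE 0.242, adjusted p = 1.07e-06) and 3.45 (SE 0.268, adjusted p = 2.51e-06).

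Other large rises were at Lacc1, Mettl16 and Sash1. The window 84963 bp after the start of Lacc1, which encodes an enzyme of purine nucleoside metabolism (chr14:76951154-76952154), held 8.66, 5.88 and 11.92 in Cre-negative and 67.86, 62.93 and 67.51 in knockout muscle. It rose by 2.82 (SE 0.244, adjusted p = 5.17e-06), with knockout values close together. The window before Mettl16, an RNA methyltransferase gene (chr11:74747826-74748826), rose from 2.67, 2.72 and 3.82 to 24.79, 26.85 and 29.01, a log2 difference of 2.79 (SE 0.278, adjusted p = 1.86e-05). The window 328596 bp before Sash1, a scaffold protein gene (chr10:9214166-9215166), rose from 2, 6.79 and 4.29 to 24.79, 25.53 and 44.01, by 2.65 (SE 0.362, adjusted p = 0.000237). The groups did not overlap in either.

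Lowered windows were fewer, and their largest differences were smaller. The window 18946 bp after the start of Odf3l1, of the outer dense fibre family (chr9:56832517-56833517), held 57.97, 36.21 and 31.00 in Cre-negative and 1.77, 5.72 and 10.50 in knockout muscle. All knockout values were below all controls, and the window was lowered (log2 difference -2.79, SE 0.425, adjusted p = 0.000555). At Irx3, a homeobox factor gene (chr8:91782167-91783167), it went from 20.66, 12.67 and 19.08 to 0.59, 7.48 and 7, a log2 difference of -1.93 (SE 0.522, adjusted p = 0.0241). That call was lost without any 1 of the Cre-negative animals, Ctr_1898, Ctr_1899 or Ctr_1906. At Eno1, the gene of the glycolytic enzyme enolase 1 (chr4:150231615-150232615), the window 5082 bp before the start held 118.61, 120.84 and 99.20 and then 65.50, 29.49 and 43.01, a log2 difference of -1.34 (SE 0.225, adjusted p = 0.00113). The knockout animals all lay below the controls at both.

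Among unnamed transcripts, the window 1981 bp before Gm36738 (chr15:78583070-78584070) fell by 1.94 (SE 0.346, adjusted p = 0.00183) and that after Gm33337 (chr10:118675549-118676549) fell by 1.41 (SE 0.325, adjusted p = 0.00981). The Gm33337 call was lost without Ctr_1899 or mKO_1900. The window 50614 bp before Gm19689 (chr17:83128339-83129339) held 73.30, 45.26 and 31.00 in Cre-negative and 12.39, 23.32 and 18 in knockout muscle. Its groups did not overlap, and it fell by 1.38 (SE 0.298, adjusted p = 0.00645).

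**Figure D3:**
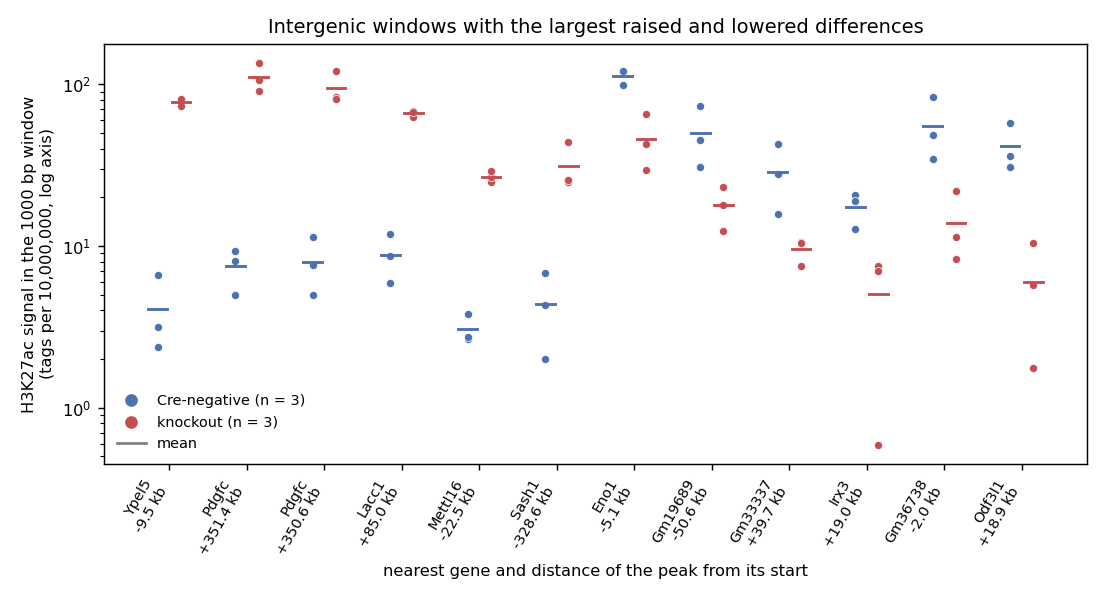
H3K27ac signal (tags per 10000000, log axis) in each of 3 Cre-negative and 3 knockout libraries at the 6 raised and 6 lowered intergenic windows with the largest differences among those with separate groups and a mean signal of at least 10, bars for the means, with the nearest gene and the distance of the peak from its start. The choice of windows leaves no overlap between groups and favours raised windows with low Cre-negative means, which are under 10 here.

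Of the 10 intergenic windows with the highest BCL6 scores, 6 were raised. In the strongest score group 31.0% were raised, and of all windows 13.1%. The highest, scoring 481.4, lay beyond 4930542M03Rik (chr17:45812097-45813097) and went from 142.60, 154.33 and 139.74 to 235.46, 256.13 and 232.05, a rise of 0.72 (SE 0.0993, adjusted p = 0.000246). The next, scoring 460.6, lay in a CpG island before Zfp292 and differed by 0.15 (adjusted p = 0.59). The window before Per1, a repressor of the circadian clock (chr11:69096451-69097451, score 434.9), was raised by 0.35 (adjusted p = 0.0396) with overlapping groups, 374.48, 335.37 and 301.90 against 373.55, 482.34 and 439.59. That call was lost without any 1 of Ctr_1899, Ctr_1906, mKO_1900 and mKO_1907, and when libraries were centred.

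At Cish, a feedback inhibitor of cytokine receptors that signal through STAT5, the window 11314 bp after the start (chr9:107307473-107308473, score 395.7) varied within the controls. It held 295.19, 183.30 and 109.22 in Cre-negative and 253.16, 314.23 and 341.57 in knockout muscle, and the difference of 0.73 did not pass (SE 0.249, adjusted p = 0.0681). Xkr5, of the XK family, had a window scoring 334.4 that rose from 87.96, 90.07 and 62.95 to 222.48, 218.73 and 253.05, by 1.53 (SE 0.142, adjusted p = 9.66e-06). Near Mir483, within the Igf2 locus, the window scoring 325.9 rose by 1.46 (adjusted p = 0.000317). The window near 4930517M08Rik (score 393.2), on a LINE element, rose by 2.11 (adjusted p = 0.000896) at low levels, from at most 3.34 to at least 11.88. The windows at Ptpn1, which encodes a phosphatase acting on the insulin receptor, and at Ahctf1, a nucleoporin gene, were not called (adjusted p = 0.215 and 0.828). That at Ahctf1 scored 379.8 and held at most 5.33 tags, so a high BCL6 score did not require H3K27ac. The window at Zfp395 rose by 0.42 (adjusted p = 0.0188), a call lost when libraries were centred and without any 1 of the animals but Ctr_1899.

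The windows richest in H3K27ac differed little. The richest, 5295 bp before Klf9, which encodes a zinc finger factor induced by glucocorticoids (chr19:23135431-23136431), had a mean of 706 and rose by 0.31 (SE 0.0723, adjusted p = 0.0111). An overlapping Klf9 window, which shares tags, rose by 0.26 (adjusted p = 0.0284). Both calls were lost without Ctr_1898 or mKO_1900 and when libraries were centred, and the smaller also without Ctr_1899, Ctr_1906 or mKO_1907. The other 4, at Hspa8, Setd1b, Pfn1 and 1810026B05Rik, differed by -0.03 to 0.21 and did not pass. At 0.26 the smaller Klf9 difference was the smallest that passed among raised windows.

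Of 220 nearest genes with 3 or more intergenic windows, which held 818 windows with 19.1% raised, 15 had 3 or more raised. With overlapping windows, which share tags, counted as 1, it was 14, without Slc25a33. Genes with more windows have more that can be called. The gene H2afy3 had 9 windows over 469216 bp (chr15:62333877-62803093), of which 6 were raised, by up to 2.4, or 5 with an overlapping pair counted as 1. Bod1, named for chromosome biorientation, had 5 of 7 raised over 168450 bp, and N6amt1, a methyltransferase gene, 5 of 6 over 58305 bp. All 4 windows of Samd7 rose, by 1.56 to 2.32, within 19021 bp. All 4 of Nos1, the neuronal nitric oxide synthase that muscle fibres express, rose by 0.47 to 1.78. At Samd7 the window 9360 bp before the start went from 45.98, 45.71 and 35.77 to 173.50, 180.44 and 175.04, without overlap. Hif1a, the hypoxia factor, had 3 of 4 raised, Zfp36l1, which promotes mRNA decay, 3 of 3, and Tbl1xr1, a subunit of the NCOR corepressor complex, 3 of 9.

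Nearest genes were also read by function, in 16 lists. The counts of a list are read against the 13.1% of all windows that were raised, which many of the lists lie near, and no difference between lists was tested. The largest share was among genes of calcium handling and the neuromuscular junction, where 6 of 9 windows were raised, with a median log2 difference of 1.04 against 0.13 over all windows. These were 3 windows of Chrna9 and 1 each of Sln, Trdn and Scn4a, so 1 gene gave 3 of the 6. The lists were chosen with earlier results of these data known, so the order of their shares is description only. Chrna9 encodes the alpha9 subunit of nicotinic acetylcholine receptors. Its window 1074 bp before the start (chr5:65965550-65966550, score 229.1) held 29.98, 27.61 and 20.03 in Cre-negative and 132.78, 180.00 and 132.53 in knockout muscle. Its window 6315 bp before the start held 73.96, 57.93 and 42.45 and then 174.68, 228.41 and 205.04, and that 29895 bp before the start 39.31, 28.97 and 34.82 and then 80.85, 72.18 and 71.52. Knockouts exceeded controls at all 3, and the differences were 2.48 (SE 0.184, adjusted p = 2.04e-06), 1.81 (SE 0.178, adjusted p = 1.64e-05) and 1.11 (SE 0.167, adjusted p = 0.000494).

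Sln encodes sarcolipin, an inhibitor of the calcium pump of the sarcoplasmic reticulum. Its window 23143 bp after the start (chr9:53872894-53873894) rose from 9.33, 7.24 and 7.15 to 40.72, 43.57 and 54.51, by 2.41 (SE 0.232, adjusted p = 1.44e-05). Trdn encodes triadin, which ties calsequestrin to the ryanodine receptor, and its window rose by 1.04 (adjusted p = 0.00026). Scn4a encodes the sodium channel of muscle, and its window rose by 0.61 (adjusted p = 0.0145), a call lost without mKO_1900 or mKO_1907 and when libraries were centred. The windows of Ache and Atp2a1 were not called.

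**Figure D4:**
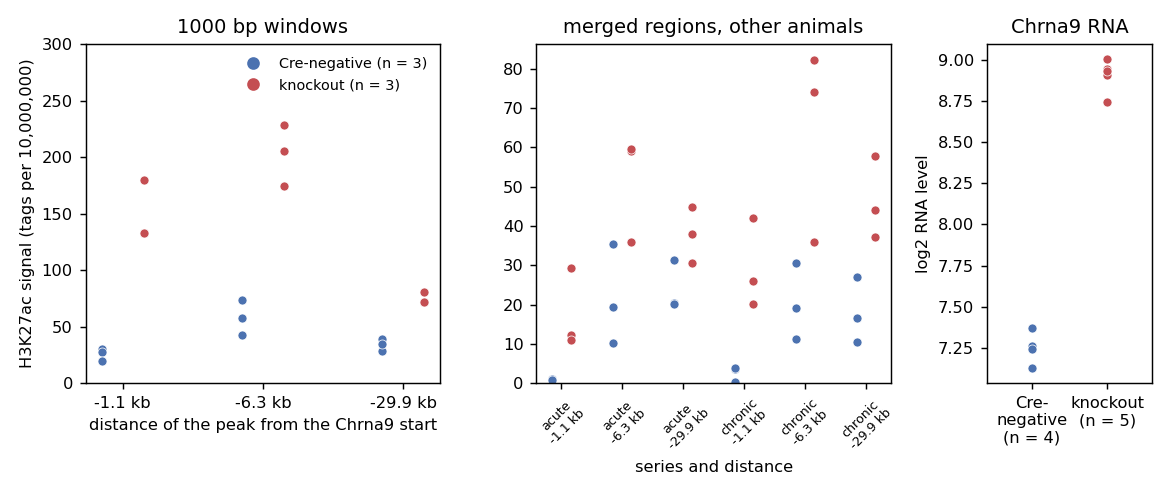
Left, H3K27ac signal (tags per 10000000) in 3 Cre-negative and 3 knockout libraries at the 3 intergenic windows of Chrna9, by distance of the peak from the start. Middle, the merged regions that hold these windows in the acute and chronic series, 3 other animals a group; right, log2 Chrna9 RNA in 4 Cre-negative and 5 knockout animals, on an axis that does not start at 0. Knockouts stand above controls in the windows and in RNA, and 1 acute region, that of the farthest window, has overlapping groups.

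Of the growth-related lists, mTORC1 and translation had 3 of 6 windows raised, 2 at Ddit4, an inhibitor of mTORC1, and 1 at Eif4e, the cap-binding factor. The Ddit4 window with the higher score, 289.1, rose from 65.30, 52.95 and 38.15 to 88.52, 148.75 and 126.03, by 1.2 (SE 0.211, adjusted p = 0.00163). Calls of the other Ddit4 window (0.67) and of Eif4e (0.37) were lost when libraries were centred. Atrophy and FOXO genes had 5 of 19 raised, beside 13.1% of all windows. These were 3 windows of Acvr2a, a receptor for myostatin and activin, at 0.64 to 2.23, and 1 each of Gadd45a (0.92) and Foxo3 (0.42). The Foxo3 call, and that of the Acvr2a window at 1.16, were lost with centring, which gave 3 raised and 1 lowered for the list. Growth hormone, IGF and insulin genes had 2 of 11 raised, both at Pik3ca, the catalytic subunit of PI3-kinase. The stronger Pik3ca window, scoring 242.6, rose from 69.30, 53.86 and 44.35 to 116.25, 117.51 and 138.53, by 1.16 (SE 0.165, adjusted p = 0.000319), and the other by 0.95 (adjusted p = 0.000119).

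In the SOCS family 2 of 9 windows were raised, at Socs2 (0.41, adjusted p = 0.00838) and Socs6 (0.54, adjusted p = 0.0147), and centring left 0. Bcl6 and its corepressors had 2 of 8 raised, both at Bcor, a corepressor that BCL6 recruits, at 0.58 and 1.38 (adjusted p = 0.0239 and 0.00187). The smaller was lost with centring. The only intergenic window of Bcl6 itself went from 11.33, 14.03 and 13.83 to 21.83, 27.73 and 17.50, without overlap, but did not pass (0.71, adjusted p = 0.0751). Among immune genes 1 of 10 was raised, at Nfkbia, the inhibitor of NF-kappaB, which went from 141.26, 119.48 and 99.68 to 266.14, 336.67 and 260.56 (1.26, SE 0.138, adjusted p = 4.06e-05).

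Beside 13.1% of all windows, myogenic factors had 3 of 14 raised, at Mef2a (1.01), Sox6 (0.39) and Tead1 (adjusted p = 0.0449), all lost with centring. Immediate early factors had 3 of 27, of which 2 overlapping ones at Myc (0.88 and 0.70, adjusted p = 0.00697 and 0.00638) and 1 at Jun (0.56), the last lost with centring, which lowered 1 other window of the list. PPAR, ERR and PGC-1 regulators had 2 of 8, both at Nr1d1, the clock repressor REV-ERB alpha (0.31 and 0.38), and the clock list had 1 of 7, at Per1. Centring left 0 in both lists. Limma called 0 of 11 sarcomere windows, 0 of 8 in glycolysis and glycogen, 0 of 8 in fatty acid and sterol metabolism and 0 of 9 in cell cycle, survival and p53. At an unadjusted p under 0.05 these held 3, 3, 3 and 0, where 2924 of all 10925 windows did so. With TMM, edgeR called 2, 2, 0 and 0, all lowered, where 4.22% of all windows it tested were lowered. Centred libraries gave 3, 2, 1 and 0 lowered, where 5.01% of all windows were lowered. Without mKO_1900, the calls at Eif4e, Socs6, Mef2a, Sox6, Tead1 and Jun, the smaller ones at Ddit4, Bcor and Nr1d1, and those of Acvr2a at 1.16 and 2.23 were lost. All of these but Ddit4 were also lost without mKO_1907. Sox6 and the smaller Nr1d1 call were lost without any 1 of the 6 animals. Ctr_1899 or Ctr_1906 also ended those of Ddit4, Ctr_1899 those of Socs6, Acvr2a and Tead1, Ctr_1906 those of Bcor, Eif4e and Mef2a, Ctr_1898 those of Eif4e and Tead1, and mKO_1896 those of Ddit4, Bcor and Eif4e.

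The same elements were then followed in other animals. The acute and chronic series were counted in 73866 merged acetylated regions, and 1346 of the intergenic windows (41.4%) overlapped 1405 of these by at least 1 bp, against 44.2% of intron and 68.8% of promoter windows. In the acute series 8 of 1395 such regions tested were raised and 1 lowered (limma), where 0.0937% of all regions were raised and 0.0042% lowered. In the chronic series 21 of 1370 were raised and 1 lowered, where 0.166% and 0.0118% of all regions were. Their median log2 difference was 0.08 against 0.01 over all regions in the acute series, and 0.17 against 0.04 in the chronic series. The counts turn on single animals. Without imKO_6346, imKO_6349 or Ctr_6366 the acute series gave 1, 2 and 4 called regions. Of all acute regions 13, 8 and 31 were then raised and 2, 2 and 0 lowered. Without chronic imKO_1794 or imKO_1802 limma called 0 of all chronic regions. Of 1363 regions on an intergenic window, 217 and 200 then stood at an unadjusted limma p under 0.05. Of all regions 3213 of 67735 and 3240 of 67772 did so. Without imKO_1803 limma called 2 regions on an intergenic window, where 6 of all regions were raised and 0 lowered. Without Ctr_1801, the library with the fewest tags, it called 67, where 336 of all regions were raised and 64 lowered.

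Regions on raised windows were mostly higher in the other series too. Of the 279 acute regions on a raised window 7 were raised, their median difference was 0.43, and 87.5% stood above 0, against 50.7% of all regions. Of the 275 chronic ones 20 were raised, the median was 0.71, and 94.2% stood above 0, against 54.0% of all. The 14 regions on a lowered window had medians of -0.29 and -0.22, and 1 was lowered in each series. Across the windows in a tested region, the difference in the window and in the region had a Pearson correlation of 0.544 over 1413 acute and 0.66 over 1388 chronic pairs. These are descriptions, since regions can hold several windows and all sites of a series share libraries and their depth. Medians by BCL6 score group, weakest to strongest, were 0.05, 0.06, 0.04, 0.07 and 0.18 in the acute and 0.11, 0.12, 0.12, 0.17 and 0.35 in the chronic series.

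**Figure D5:**
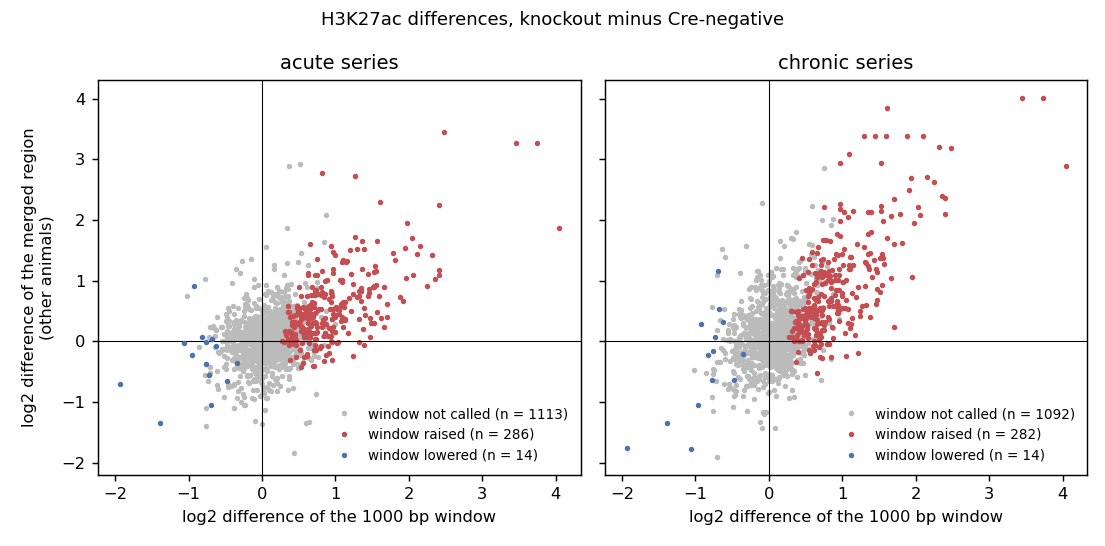
Log2 H3K27ac difference, knockout minus Cre-negative, of intergenic windows (horizontal) and of the merged regions that hold them in other animals (vertical), acute on the left and chronic on the right; each point is a window and region pair, coloured by the call of the window. Most points of raised windows lie above 0 on the vertical axis.

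Called in both series were 6 regions, and 5 of them were raised. That beyond Pdgfc went from 1.70, 0 and 2.16 to 20.08, 13.32 and 24.55 in the acute and from 2.99, 0 and 3.04 to 62.73, 36.96 and 27.20 in the chronic series. The groups were far apart in both, with differences of 3.27 (SE 0.578, adjusted p = 0.00787) and 4.02 (SE 0.559, adjusted p = 0.00419). That before Ypel5 rose by 1.87 (adjusted p = 0.0207) and 2.88 (adjusted p = 0.00459). That before Samd7 went from 22.08, 18.53 and 33.15 to 75.05, 88.56 and 77.50 in the acute series, a rise of 1.71 (SE 0.231, adjusted p = 0.00021), and by 2.21 in the chronic one (adjusted p = 0.00459). Its acute call held without each library, under both other scalings, without the filter and with a pseudocount of 5, but the region shares only 199 bp with the window and is left out where an overlap of 500 bp is required.

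The region at the nearest Chrna9 window rose by 3.44 (adjusted p = 0.0154) and 3.18 (adjusted p = 0.0187), from at most 1.16 and 3.85 in the controls to at least 10.97 and 20.24. The regions at the other Chrna9 windows did not pass in either series (acute adjusted p = 0.0782 and 0.533, chronic 0.0892 and 0.135), nor did that at the Sln window (0.597 and 0.121). The region before Stc2, the stanniocalcin 2 gene, rose by 2.30 (adjusted p = 0.0427) and 3.85 (adjusted p = 0.0322). The region at Gm19689 was lowered in both, from 44.17, 61.39 and 55.50 to 16.91, 24.29 and 20.22 and from 74.64, 73.12 and 82.12 to 32.18, 22.06 and 36.05. Its differences were -1.35 (adjusted p = 0.0151) and -1.35 (adjusted p = 0.0255), close to the -1.38 of the window. All of these calls but the acute one of Samd7 were lost without imKO_6346 or imKO_6349 in the acute series, and without any 1 of the 3 knockouts in the chronic series. The acute ones of Ypel5, Gm19689 and Stc2 were also lost without Ctr_6366, and further animals ended those of Stc2 (Ctr_6345, imKO_6348), Ypel5 and Gm19689 (Ctr_6371) and the chronic one of Gm19689 (Ctr_1795, Ctr_7362).

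Some regions were called in the chronic series alone, and the difference between the series was not tested. At Cish the chronic region went from 16.42, 37.20 and 15.21 to 91.64, 95.97 and 74.63 (1.99, SE 0.299, adjusted p = 0.00543). The acute one held 80.70, 39.96 and 78.56 and then 70.30, 41.54 and 74.13 (-0.07, adjusted p = 0.968). The groups were apart in the chronic and overlapped in the acute series, in which the controls stood higher than the chronic controls. The region at Pipox, a peroxisomal amino acid oxidase gene, went from 8.21, 10.26 and 8.26 to 60, 58.47 and 61.35 in the chronic series, a rise of 2.63 (SE 0.293, adjusted p = 0.00115). The region at Xkr5 rose by 2.94 (adjusted p = 0.00418), and 3 regions at Bod1 by 2.08 to 2.71. The region before Car3, the gene of a carbonic anhydrase abundant in slow muscle, rose by 1.98 (adjusted p = 0.00811). Acute calls alone were at Dennd5a (1.65), Zcchc24 (1.52) and Vgll2, a cofactor of TEAD factors (2.93), whose window was not called. The acute calls were lost without imKO_6346 or Ctr_6366, and those of Zcchc24 and Vgll2 without any 1 of Ctr_6371, imKO_6348 and imKO_6349 too. The chronic calls were lost without imKO_1794 or imKO_1802, and but for Pipox without imKO_1803.

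Of the 2264 nearest genes found in the RNA table, 1402 were expressed enough to test. In knockout muscle 140 of them (9.99%) were raised and 249 (17.8%) lowered (limma), where 6.55% of all genes tested were raised and 10.3% lowered. Quantile normalization gave 162 raised and 182 lowered, where 7.42% and 7.92% of all genes were. With only the 6 animals of the window series it was 71 and 144, where 322 and 630 of all 12111 genes tested were. Raised genes numbered 7.04%, 5.58%, 7.35%, 8.79% and 17.8% by the score group of a gene's strongest intergenic peak, and lowered genes 19.7%, 14.7%, 19.9%, 18.2% and 16.7%. In whole muscle, fewer cells of a type and less RNA per cell cannot be told apart. RNA and windows come from the same animals, so their values are set side by side without a test.

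The 5 nearest genes with the largest rise in RNA all had a raised window, where 374 of all 2283 nearest genes had 1 or more. Chrna9 RNA stood at 7.26, 7.37, 7.13 and 7.24 in Cre-negative and 9, 8.94, 8.91, 8.74 and 8.93 in knockout muscle (log2 levels), far apart, with a rise of 1.65 (SE 0.0525, adjusted p = 2.18e-09). Atp1b4, of the family of sodium pump beta subunits, rose by 0.86 (SE 0.0701, adjusted p = 6.45e-06), and its window 2224 bp before the start went from 8.66, 5.43 and 7.63 to 34.82, 24.65 and 24.51 (1.82, SE 0.27, adjusted p = 0.000454). Sln RNA went from 7.24, 7.36, 7.16 and 7.15 to 8.14, 8.15, 8.03, 7.83 and 8.22 (0.85, SE 0.0687, adjusted p = 5.85e-06), without overlap. Meg3, an imprinted noncoding RNA, rose by 0.82 (SE 0.0363, adjusted p = 1.97e-08), and its window 35494 bp before the start by 2.04 (SE 0.43, adjusted p = 0.00555). Arid5a, which encodes a regulator of mRNA stability, rose by 0.64 (adjusted p = 0.000264), and its window by 0.71 (adjusted p = 0.00134).

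The 5 nearest genes with the largest fall in RNA had 7 windows, of which limma called 0, with 0 at an unadjusted p under 0.05 and 0 called by edgeR with TMM. Over all intergenic windows 14.1% were raised and 1.17% lowered. Igf1, the muscle growth factor, went from 9.79, 9.78, 10.06 and 10.12 to 8.91, 9.09, 8.87, 8.92 and 9.01 and fell by 0.98 (SE 0.0689, adjusted p = 1.55e-06). Its only intergenic window held at most 5.72 tags and differed by -0.33 (adjusted p = 0.61). Tnfaip2 fell by 0.78, Smox, which encodes spermine oxidase, by 0.77, Cd28, a costimulatory receptor gene of T cells, by 0.63 and Kcnf1, a potassium channel gene, by 0.62. The window of Smox differed by -0.41 (adjusted p = 0.252) and that of Tnfaip2 by -0.38 (adjusted p = 0.243), both with knockouts below controls, while those of Cd28 and Kcnf1 overlapped.

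The RNA of genes beside the raised windows went both ways. Pdgfc rose by 0.43, Myc by 0.44, Gadd45a by 0.36, Socs2 by 0.36, Nfkbia by 0.32, Zfp395 by 0.20 and Pik3ca by 0.17, all past the threshold. Scn4a fell by 0.30, Tead1 by 0.29, Sox6 by 0.24, Trdn by 0.12 and Mef2a by 0.09 beside raised windows, and Cish fell by 0.42. The Mef2a and Trdn calls were lost under quantile normalization, which turned the Trdn difference to 0.01 (adjusted p = 0.683). Ypel5, with the largest rise in H3K27ac, differed by 0.04 in RNA (adjusted p = 0.342), Lacc1 by -0.01 (adjusted p = 0.877) and Ddit4 by 0.14 (adjusted p = 0.424).

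Inhibition of BCL6 with FX1 in wild-type muscle gave a measure of nascent RNA in other animals. Of 1466 nearest genes tested, 254 (17.3%) were raised and 198 (13.5%) lowered (limma), where 12.4% of all genes were raised and 11.2% lowered. Quantile normalization gave 242 raised and 253 lowered, where 12.1% and 13.4% of all genes were, so the balance of the directions depends on the scaling. Genes whose windows were raised in the knockout had 34 raised and 34 lowered of 250, 13.6% each. Genes with no called window had 216 and 160 of 1195, 18.1% and 13.4%, and genes with a lowered window 4 and 4 of 21. Ddit4 rose by 2.38 (adjusted p = 0.000376), Nfkbia by 1.42 (adjusted p = 0.00014) and Foxo3 by 1.32 (adjusted p = 0.000375). Among genes beside raised windows that fell, Atp1b4 fell by 1.51 (adjusted p = 0.00231), Nr1d1 by 1.32 (adjusted p = 0.00014) and Scn4a by 0.67 (adjusted p = 0.00411). Cish, whose window was not called, fell by 2.03 (adjusted p = 0.000843) and Igf1 by 1.24 (adjusted p = 0.00537). Chrna9 and Sln were below the expression limit in nascent RNA. FX1 sample 3 stood outside the other 4 at several genes, and without it 337 nearest genes of 1467 were raised and 270 lowered. Of all 13073 genes then tested, 2263 were raised and 2061 lowered.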

How the data were processed

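Per the submitters' processing notes, reads were processed on mm10 with HOMER, whose version is not named, Bowtie 1.2, DESeq2 1.14.1 and STAR 2.4.0. Their roles are not stated there. Per the file headers, H3K27ac tables hold a signal, tags per window or region scaled by the authors to 10000000 tags per library. The deposited peak list gives a peak score, on a scale not named, and a fraction, the focus ratio, for 1 library. The deposited RNA tables give log2 levels per gene, made with HOMER per the file headers by a transform not named.

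Members and gene lists were chosen with earlier results of these data known. The nearest gene is that of the deposited annotation. Signal was tested as log2 of the signal plus 1 in limma 3.58.1 (R 4.3.3) with a trended variance over all 10925 windows, or over merged regions with a mean signal of at least 5. Such log2 differences understate the change of windows with few tags. The deposited log2 values were tested in the same way over genes with a mean of at least 5. Calls are at a Benjamini-Hochberg adjusted p under 0.05 over the whole table. Each SE is that of the limma fit, with a variance moderated over all windows, regions or genes tested.

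Whole tags were recovered from the signal and the library totals (100% of values came out whole, within a tolerance of 0.00390 to 0.0115 tags) for edgeR 4.0.16 and DESeq2 1.42.0. Alternatives were pseudocounts of 0.5 and 5, other scalings, filters and overlaps, a common variance prior, both count tools and leaving out each library. The edgeR fit scaled to library totals was added after seeing the data. It called 507 intergenic windows raised and 45 lowered, or 15.6% and 1.38%, against 14.3% and 1.23% of all windows.

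The limma code was also run on simulated data, and the edgeR and DESeq2 code was not. Of changes of 0.5 and 1 on the log2 scale it recovered 2% and 53% in windows. It recovered 1% and 28% in acute and 0% and 22% in chronic regions. In RNA it recovered 99% and 100%, and in nascent RNA 14% and 83%. These shares depend on the spread assumed in the simulation.

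Windows named are the 10 with the highest scores, the 6 raised and 6 lowered with the largest differences among those with separate groups and a mean signal of at least 10, the 6 with the most signal, and those nearest to and farthest from a start. For each list, every called window was named, or else the highest-scoring one. Regions named hold a named window or are among the 5 with the smallest p in each series. Genes named are nearest to named windows or are the 5 raised and 5 lowered with the largest change in RNA. Genes with 3 or more raised windows, other called regions, the Bcl6 window and the printed sequences were singled out after their values were seen.

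Input libraries, a wild-type H3K27ac library, RiboTag libraries, oil-treated controls and chronic RNA were not used here. The result of 1 gene list is not reported here. Sequences are from RefSeq promoter tables of GRCm38.p6, since no genome was given. Tables were handled with pandas 2.3.3 and, in R, data.table (1.17.8), statistics outside R with scipy 1.17.1 on numpy 2.4.6, and plots with matplotlib 3.10.9, under Python 3.11.15.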

Additional observations from a re-analysis of the deposited data

Results flagged for a closer look

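Groups of 4 or 5 animals were searched for an animal whose gap to the nearest other, as a share of the range of its group, exceeded Dixon's critical value at the named genes. It did so in 12 of 216 groups, about the 1 in 20 that chance gives. In RNA these were Per1 in knockout P1896 (share 0.758), which stood at 8.46 against 9.35 to 9.64, Socs2 in knockout P1900 (0.727), at 9.12 against 8.85 to 8.92, and Pfn1 in Cre-negative P1906 (0.855), at 9.02 against 9.18 to 9.21. Gm36738 in Cre-negative P1899 (0.891) and Mir483 in knockout P1895 (0.975) lay under the expression limit. In nascent RNA FX1 sample 3 stood apart at Hspa8 (0.723), Sash1 (0.729), Socs2 (0.822) and Xkr5 (0.731). It was low at the first 3, with Socs2 at 5.69 against 7.05 to 7.35. DMSO sample 4 stood apart at Chrna9 (0.797) and 4930517M08Rik (0.866) and FX1 sample 5 at 4930517M08Rik (0.854), all under the expression limit. The H3K27ac groups hold 3 animals and were not searched.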

How the results depend on the processing

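Of 66 named windows 50 were called, 25 of them under every alternative run, and 0 reversed. The count of called intergenic windows, 498, was 331 in DESeq2 and 289 with a common variance prior. It ran from 290 to 462 when a library was left out. Of all windows, DESeq2 called 782 raised and 237 lowered and the common prior 794 and 61, from 1427 and 113. The median log2 difference over all 3255 intergenic windows, 0.13, became -0.0939 with centred libraries and -0.0453 with quantile normalization, and ran from 0.11 to 0.15 without a library. The 9 called acute regions became 23 in edgeR with TMM, 21 with a pseudocount of 5, 5 at an overlap of 500 bp, and 1 to 11 without a library. Of all acute regions, 152 were raised and 18 lowered with TMM and 136 and 10 with that pseudocount, from 67 and 3. The 22 called chronic regions became 69 with TMM, 44 with that pseudocount and 11 at that overlap. Quantile normalization gave 51, and leaving out a library 0 to 67. Of all chronic regions, 331 were raised and 57 lowered with TMM and 216 and 24 with that pseudocount, from 113 and 8. With quantile normalization it was 251 and 48. The 389 nearest genes called in RNA became 215 with only the 6 animals of the window series and 326 to 371 without a library. Of all genes, 322 were raised and 630 lowered with only those 6 animals, from 793 and 1246. The 452 called in nascent RNA ran from 355 without DMSO sample 3 to 607 without FX1 sample 3. Of all genes, 1136 were raised and 998 lowered in the first and 2263 and 2061 in the second, from 1619 and 1459. With the replicate number as a block 330 were called, where 992 of all genes were raised and 856 lowered. No label says that a number marks a shared day or litter. Deviations of samples with the same number had correlations of -0.435, -0.058, -0.351, -0.253 and 0.179, and only number 5 correlated best with its own number. So few correlations cannot settle whether equal numbers mark pairs. Of single genes Trdn reversed, to 0.0139 with quantile normalization. The causes were not tested. Leaving out an H3K27ac library leaves 2 animals in an arm, and few tags in many windows and regions limit all H3K27ac counts.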

Other observations

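Most intergenic peaks, 2699 or 82.9%, lay on no annotated repeat or CpG island. Peaks on LTR elements (204) and LINE elements (130) had low H3K27ac, at median signals of 10.5 and 8.22 against 23.5 where there was no element, but alike BCL6 scores (24.5, 23.3 and 24.5). On LTR elements 14.2% of windows were raised and on LINE elements 10.8%, against 14.1% of all intergenic windows. MT2A, an LTR family, had 30 peaks with a median signal of 2.52, and 2 of these windows were raised. The 45 peaks in CpG islands were the richest, at a median of 195, and 5 of their windows were raised.

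The intergenic label depends on the annotation used. In the RefSeq table of GRCm38.p6, 790 of the 3255 peaks (24.3%) lay inside a gene, 547 in long noncoding RNA genes and 229 in protein-coding genes. Windows inside such a gene had a median signal of 27 and 94 were raised (11.9%). The 2465 windows outside had a median of 20.3 and 366 were raised (14.8%). Median log2 differences were 0.14 and 0.13.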
